A study of Homo sapiens with 8 samples.

Results

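MS8815N and EPZ-6438 are EZH2-directed compounds that the labels set apart from the EZH2 degrader of the same series, and they were compared here at the same dose and time in SUDHL6 cells. The members of the comparison are 4 of the 8 RNA-seq libraries of the series, 2 for MS8815N and 2 for EPZ-6438, and the 17884 genes found in the tables of both compounds. The 2 DMSO libraries, which both tables contain, put the compounds on one scale and serve as the reference. SUDHL6 is an established human diffuse large B-cell lymphoma line of the germinal-centre B-cell type, known to carry an activating EZH2 mutation. Cells grown in RPMI medium with serum received DMSO (the vehicle), EPZ-6438 or MS8815N, the compounds at 2.5 µM, for 18 h. No other agent or genetic change separates the groups in the labels. The labels call EPZ-6438 a matched inhibitor of the SET enzymatic domain and MS8815N a non-PROTAC analog, a control for the EZH2 degrader MS8815, whose own libraries were not in the fit. They speak of duplicates, with no word on separate cultures, and p-values therefore reflect only library-to-library spread, possibly technical. Libraries were made with either of 2 kits and the labels do not say which, so kit and group cannot be told apart.

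EZH2 is the catalytic subunit of polycomb repressive complex 2 (PRC2), which methylates lysine 27 of histone H3 and keeps developmental and differentiation genes silent. In germinal-centre B cells it holds back cell-cycle inhibitors and plasma-cell genes, and inhibitors of its enzyme such as EPZ-6438 (tazemetostat) are used against lymphomas. A PROTAC joins a ligand of its target to a recruiter of a ubiquitin ligase, and a non-PROTAC analog serves to show which responses do not need degradation. The integrated stress response is a separate pathway: kinases that sense amino acid shortage, unfolded protein or mitochondrial stress phosphorylate the translation factor eIF2, general translation falls, and the transcription factor ATF4 is made and switches on amino acid synthesis, transport and transfer-RNA charging genes.

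The libraries were of similar depth and of the labelled cell type. Estimated depth was 30.9 and 31.6 M reads for DMSO, 34.1 and 30.2 M for MS8815N and 30.5 and 26.0 M for EPZ-6438. The median absolute difference between replicates in the upper 50% of genes by level was 0.058 to 0.063 on the log2 scale in the 3 groups. The summed normalised count of 12 pan-B genes, among them MS4A1 (CD20) and CD79A, was 162842 to 164091 in the 6 libraries. SERPINA9, a germinal-centre gene, had 18207 to 19670 normalised counts, whereas CXCR4 and MEF2C of the same list had at most 26.9. Markers of other cells were present at low levels. The adherent-cell sum was higher with both compounds than with DMSO, the T-cell and NK-cell sum was highest with EPZ-6438, and the myeloid sums overlapped. For 8 of 10 adherent-cell markers measured, the summed normalised count was 1168 to 1384 with DMSO, 1674 to 1708 with EPZ-6438 and 1839 to 1992 with MS8815N. For 2 of 6 T-cell and NK-cell markers it was 51.4 to 55.1, 69.3 to 73.8 and 55.4 to 57.9, and for 4 of 5 myeloid markers 211 to 271, 209 to 275 and 257 to 299. No measured member of these 3 lists was at 0 in any library. For 9 non-polyadenylated RNAs, led by the signal recognition particle RNA RN7SL1, the sum was 30307 to 31522, 38073 to 38827 and 43940 to 44496. The part of these in the results was not tested.

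The comparison sets the analog control of the degrader beside the enzymatic inhibitor, at matched dose and time. Higher with MS8815N than with EPZ-6438 were 6 of 17 measured genes of serine, one-carbon and asparagine synthesis, 3 of 14 amino acid transporters, 9 of 20 cytosolic transfer-RNA synthetases and 9 of 13 mitochondrially encoded transcripts, and 0 genes of these lists were lower. Among the called genes of the ATF4 program, a list described below, ATF5, PCK2, ASNS and PSAT1 led, at 1.63 to 2.02 times the EPZ-6438 level. By contrast, no PRC2 subunit, reported EZH2-repressed gene, cholesterol synthesis gene or pan-B gene passed the test between the compounds. When only the upper 50% of genes by level were tested, the cholesterol synthesis list had 1 gene called lower and the pan-B list 1. The latter was the B-cell surface molecule CD22 (-0.17, limma adjusted p = 0.0325). Limma, with Benjamini-Hochberg adjustment over all genes and an adjusted p under 0.05, called 59 genes higher and 12 lower with MS8815N, which are 0.33% and 0.0671% of the genes tested. The median difference of all genes was -0.002 on the log2 scale, and 1711 genes had an unadjusted p under 0.05. Of the 59 higher genes 21 belonged to the 4 lists of the ATF4 program, serine and asparagine synthesis, amino acid transport and transfer-RNA synthetases, which hold 69 measured genes together. A further 9 of the 59 were among the 13 mitochondrially encoded protein genes. The count of 71 genes rests on the number of libraries and on the variance model. It was 31 without DMSO replicate 1, 33 without DMSO replicate 2, 27 without MS8815N replicate 1, 21 without MS8815N replicate 2, 32 without EPZ-6438 replicate 1 and 31 without EPZ-6438 replicate 2, and limma without the trend of variance with level called 0, with 1362 genes at an unadjusted p under 0.05.

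**Figure D1:**
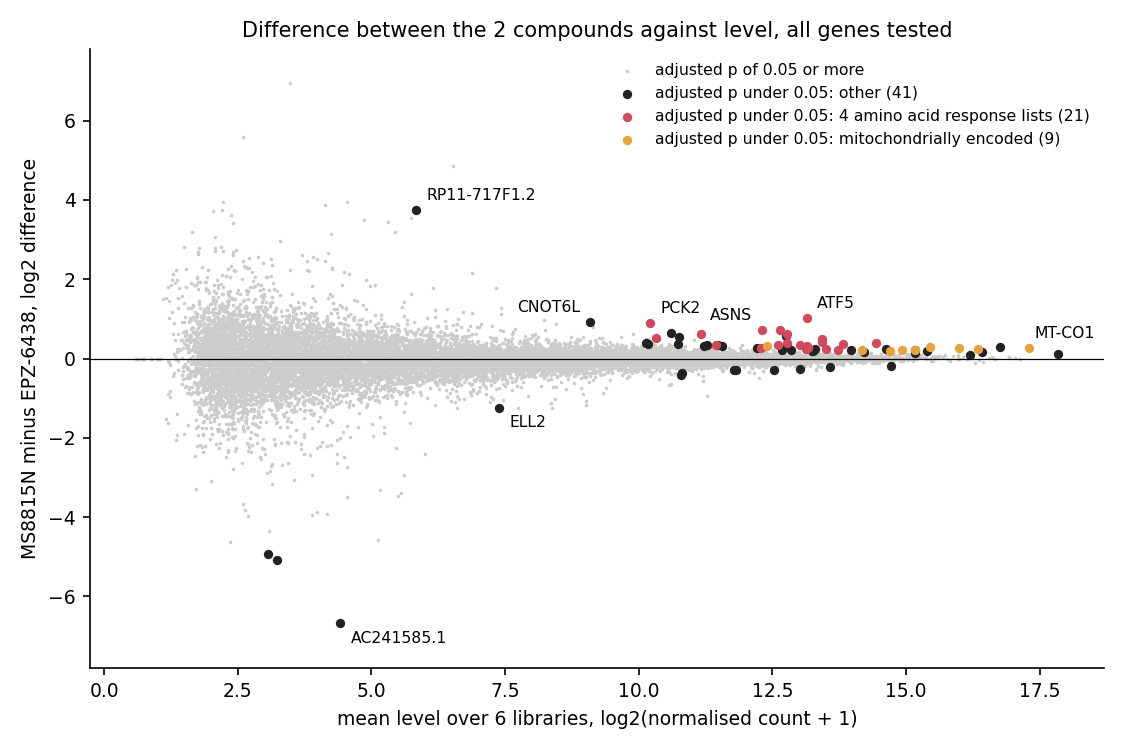
Log2 difference between MS8815N and EPZ-6438 (vertical axis) against the mean level over 6 libraries (horizontal axis, log2 of normalised count + 1) for 17884 genes, 1 point each, with the 71 called genes coloured by list. The 21 genes of the amino acid response lists and the 9 mitochondrially encoded genes all lie above 0 and at high levels.

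Of the 29 measured genes of the ATF4 program, 10 were higher with MS8815N than with EPZ-6438 and 0 were lower, with a list median of 0.33 on the log2 scale beside -0.002 for all genes. All 29 differences were above 0, and 27 to 29 were so under the alternatives tried on all 29. Without MS8815N replicate 1 or without EPZ-6438 replicate 2 the count of higher genes was 6, and in the other 4 runs with 1 library left out it was 7 to 9. This list and the 3 that follow were drawn up with earlier results of these data known, so their direction is not independent evidence.

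ATF5, a transcription factor of the stress response (GRCh38 chromosome 19, 49928702 to 49933935), had normalised counts of 7321 and 7345 with DMSO, 7077 and 7053 with EPZ-6438 and 14323 and 14191 with MS8815N. Both MS8815N libraries lay far above the other 4, and EPZ-6438 lay slightly below DMSO. The difference between the compounds was 1.01 ± 0.03 (SE, log2, 2 libraries each, limma adjusted p = 4.05e-06), a 2.02-fold level. Part of its exons, 626 bases, overlaps exons of NUP62 on the opposite strand.

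PCK2, the mitochondrial phosphoenolpyruvate carboxykinase (chromosome 14, 24094053 to 24110598), had 920 and 878 normalised counts with DMSO, 994 and 994 with EPZ-6438 and 1812 and 1918 with MS8815N. The MS8815N libraries lay far above the other 4, EPZ-6438 lay slightly above DMSO, and the difference between the compounds was 0.91 ± 0.06 (limma adjusted p = 0.00113). ASNS, the asparagine synthetase (chromosome 7, 97852118 to 97872542), had 4218 and 4535 with DMSO, 4420 and 4116 with EPZ-6438 and 7257 and 6845 with MS8815N. The DMSO and EPZ-6438 libraries of ASNS overlapped, and MS8815N exceeded EPZ-6438 by 0.72 ± 0.05 (limma adjusted p = 0.00144). PSAT1, which makes phosphoserine (chromosome 9, 78297143 to 78330093), had 5540 and 5679, then 5397 and 5218, then 8798 and 8549 normalised counts in the same order of groups. Its difference of 0.71 ± 0.03 (limma adjusted p = 0.000325) came mainly from the MS8815N libraries, with both EPZ-6438 libraries slightly below both DMSO libraries. ATF5, PCK2, ASNS and PSAT1 kept the call whichever of the 6 libraries was left out, with adjusted p-values of 0.0205 or less.

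**Figure D2:**
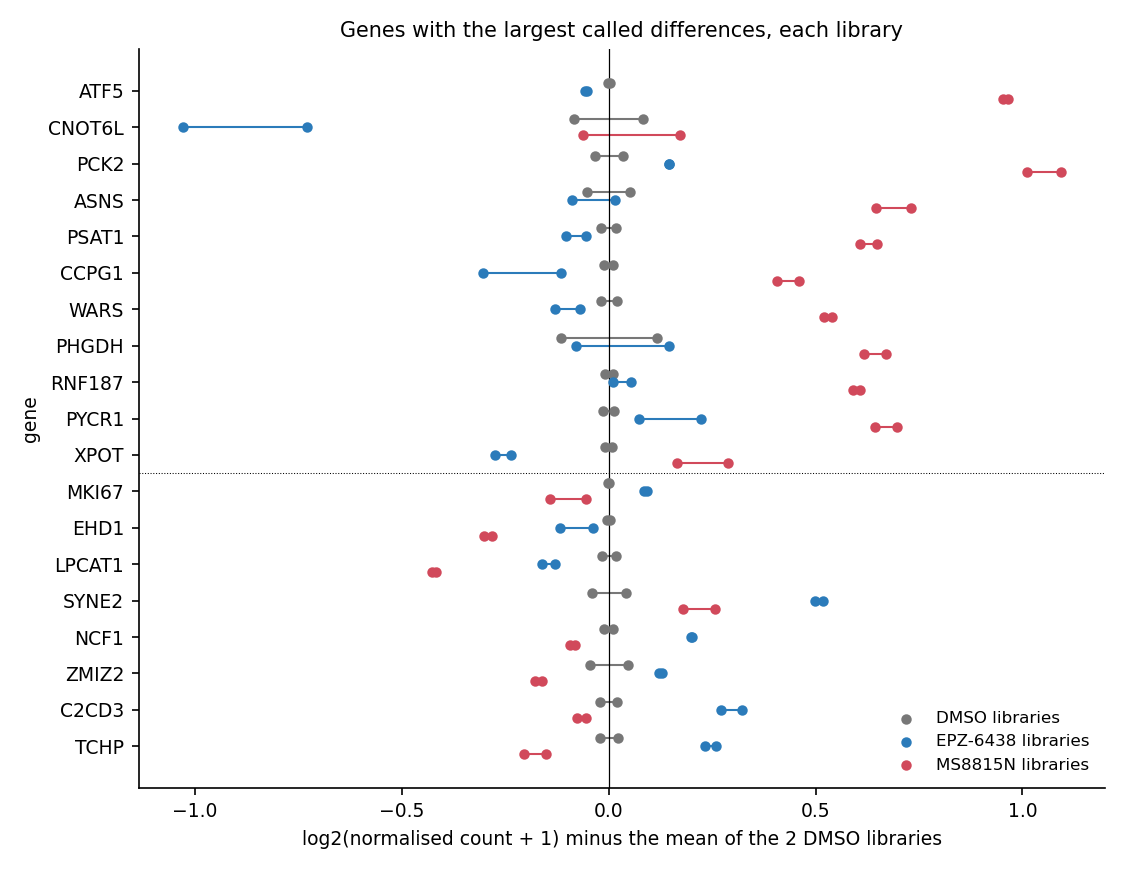
Level in each library, as log2(normalised count + 1) minus the mean of the 2 DMSO libraries (horizontal axis), for 11 called genes among those with the largest rise and the 8 with the largest fall among the upper 50% of genes by level, rises above the dotted line. Points are libraries and lines join the 2 of a group. For ATF5, PCK2, ASNS and PSAT1 the MS8815N points lie far from 0 and the EPZ-6438 points near it, whereas for CNOT6L the EPZ-6438 points lie far from 0.

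ATF4 itself, the regulator of the program, had 11630 and 12073 normalised counts with DMSO, 11477 and 11332 with EPZ-6438 and 12593 and 12756 with MS8815N. The compound groups did not overlap, but the difference of 0.15 (95% confidence interval 0.09 to 0.22) did not pass the test (limma adjusted p = 0.086). ATF4 activity is set largely at translation, which mRNA levels do not show. Of the other regulators fixed in the naming rule, DDIT3 (CHOP, linked to stress-induced death) was at 0.25 (0.05 to 0.46, limma adjusted p = 0.415), TRIB3 (a pseudokinase that dampens the response) at 0.26 (0.12 to 0.39, adjusted p = 0.186) and SESN2 (a leucine sensor upstream of mTORC1) at 0.42 (0.23 to 0.60, adjusted p = 0.11). None of the 3 passed the test. Among 13 genes of stress sensing and translation control, EIF4EBP1, the repressor of cap-dependent translation, was the only one called, with 2429 and 2401 normalised counts with EPZ-6438 and 3042 and 3072 with MS8815N (0.34 ± 0.04, limma adjusted p = 0.0227). That call was lost whichever of the 6 libraries was left out (adjusted p of 0.0802 to 0.19).

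Serine, one-carbon and asparagine synthesis genes supply amino acids and folate-bound carbon for nucleotides. Here 6 of 17 measured genes were higher and 0 lower, with a list median of 0.26. Besides ASNS and PSAT1 these were PHGDH, PYCR1, SHMT2 and MTHFD2, and all but PYCR1 are also in the ATF4 program list. PHGDH, the first enzyme of serine synthesis, had 1865 and 2178 normalised counts with EPZ-6438 against 3018 and 3135 with MS8815N. The EPZ-6438 libraries of PHGDH differed by more than those of MS8815N, and the difference of 0.61 ± 0.09 only just passed (limma adjusted p = 0.0486). It did not pass whichever library was left out (adjusted p of 0.0658 to 0.278). PYCR1, the mitochondrial proline-synthesis reductase, was at 0.52 ± 0.07 (limma adjusted p = 0.0272) and kept the call in 1 of the 6 runs with a library left out, that without EPZ-6438 replicate 1 (0.0486), the others giving 0.123 to 0.179. SHMT2 and MTHFD2, which run the mitochondrial folate cycle, were at 0.37 and 0.33 and kept the call in 2 of the 6 runs each. With a library left out the list held 2 to 4 called genes, the 2 without MS8815N replicate 1 or without EPZ-6438 replicate 2.

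Amino acid transporters had 3 of 14 genes higher and 0 lower, with a list median of 0.20. Of the called genes, SLC7A5 and SLC3A2 are also in the ATF4 program list. SLC7A5, the light chain of the transporter that brings in leucine and other large neutral amino acids, had 21620 and 21351 normalised counts with DMSO, 19539 and 19759 with EPZ-6438 and 25896 and 25239 with MS8815N. The groups did not overlap, and EPZ-6438 lay below DMSO as MS8815N lay above it. The difference between the compounds was 0.38 ± 0.02 (limma adjusted p = 0.000361), which kept its call whichever library was left out. Its heavy chain SLC3A2 was at 0.33 ± 0.03 (limma adjusted p = 0.00902) and lost the call without MS8815N replicate 1 (0.0922), MS8815N replicate 2 (0.0927) or EPZ-6438 replicate 2 (0.0579). The glutamine transporter SLC1A5 was at 0.22 ± 0.02 (limma adjusted p = 0.00902) and lost the call without either MS8815N or either EPZ-6438 library (0.0778 to 0.0994). SLC7A11, the cystine importer, was at 0.33 (0.18 to 0.48) and did not pass (limma adjusted p = 0.121). The list held 3 called genes without either DMSO library, 2 without EPZ-6438 replicate 1, and 1 without either MS8815N library or without EPZ-6438 replicate 2.

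Cytosolic aminoacyl-tRNA synthetases attach amino acids to their transfer RNAs. In this list 9 of 20 genes were higher with MS8815N and 0 were lower, with a list median of 0.17. WARS, the tryptophanyl enzyme (chromosome 14, 100333788 to 100376805), had 6216 and 6384 normalised counts with DMSO, 5761 and 6005 with EPZ-6438 and 9153 and 9030 with MS8815N. MS8815N exceeded all other libraries of WARS, with a difference from EPZ-6438 of 0.63 ± 0.03 (limma adjusted p = 0.000361). MARS, the methionyl enzyme, had 11430 and 11190, then 9354 and 9629, then 12663 and 12573 in the same order. All 3 groups of MARS were apart, with EPZ-6438 lowest, and the compounds differed by 0.41 ± 0.03 (limma adjusted p = 0.000868). MARS shares 355 exonic bases with DDIT3 on the opposite strand. SARS was at 0.38 ± 0.03 (limma adjusted p = 0.0018), and GARS, CARS, AARS, YARS, IARS and EPRS were at 0.23 to 0.35. The other 11 synthetases lay between -0.16 (QARS) and 0.21 (TARS), and none passed. WARS, MARS and SARS kept the call whichever library was left out, while the list as a whole fell to 3 to 5 called genes, with 3 without either MS8815N library or without EPZ-6438 replicate 2. XPOT, the exporter of transfer RNA from the nucleus, had 9116 and 9375 normalised counts with EPZ-6438 and 13485 and 12384 with MS8815N, a difference of 0.48 ± 0.04 (limma adjusted p = 0.00312) that also held whichever library was left out.

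The composite site that C/EBP and ATF factors bind in stress-responsive genes has the core letters TGATGNAAN, and this pattern was searched on both strands in RefSeq windows of 300 bases on GRCh38.p14, from 250 before to 50 after each start site. A gene counted once, if any of its windows held the letters. Of the 59 genes higher with MS8815N, 35 had a window and 9 of those held the letters (25.7%). The share was 6 of 13 for the synthetases (46.2%) and 7 of 25 for the ATF4 program (28.0%). It was 321 of 11560 for all genes tested (2.8%), 1268 of 35116 for all windows (3.6%), and 0 of 8 for the genes lower with MS8815N. In the ATF4 program, ATF3, CHAC1, SLC7A1, CEBPG and JDP2 held the letters but were not called between the compounds. The higher genes with a match were AARS, ASNS, CARS, HSD17B4, IARS, MARS, RSL24D1, SLC1A5 and SLC3A2. A match is a stretch of letters and not a measured binding site, and the letters were not found in the windows of the other 26 genes. Of the higher genes with a match, 7 belong to the lists above. The stretches are shown for the 6 of them whose match begins before the start site, that of SLC3A2 beginning after it. The matches of CARS and MARS begin before the start site and run across it. The stretches are written 5′ to 3′ on the gene's strand, with the matched letters, or their reverse complement, in capitals.
ASNS, chr7:97872438-97872506, minus strand, 68 bases before the start site: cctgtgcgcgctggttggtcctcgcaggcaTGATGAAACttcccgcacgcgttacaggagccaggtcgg
AARS, chr16:70289656-70289724, minus strand, reverse complement, 188 bases before: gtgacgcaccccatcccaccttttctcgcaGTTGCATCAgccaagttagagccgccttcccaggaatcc
SLC1A5, chr19:46784873-46784941, minus strand, 97 bases before: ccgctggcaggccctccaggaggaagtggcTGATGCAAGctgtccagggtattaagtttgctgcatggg
IARS, chr9:92293698-92293741, minus strand, reverse complement, 14 bases before: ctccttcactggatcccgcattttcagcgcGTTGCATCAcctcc
CARS, chr11:3057408-3057436, minus strand, reverse complement, 3 bases before: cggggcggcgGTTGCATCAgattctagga
MARS, chr12:57488053-57488081, plus strand, reverse complement, 5 bases before: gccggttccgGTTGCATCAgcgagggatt
The 4 synthetase stretches carry the same 9 letters in the same orientation, GTTGCATCA, whereas ASNS and SLC1A5 carry the forward orientation with different letters at the free positions.

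Against DMSO, the compounds differed in these lists as follows, where both comparisons use the same 2 DMSO libraries and are therefore set side by side only. For MS8815N, limma called 109 genes higher and 166 lower than DMSO (0.609% and 0.928% of genes tested), and for EPZ-6438 63 higher and 122 lower (0.352% and 0.682%). After quantile normalisation the split turned, to 100 higher of 149 called for MS8815N and 36 higher of 53 for EPZ-6438. The ATF4 program had 14 of 29 genes higher and 0 lower with MS8815N (median 0.29), and 0 higher and 2 lower with EPZ-6438 (median -0.05). The synthetases had 7 of 20 higher and 0 lower with MS8815N (median 0.06), and 0 higher and 2 lower with EPZ-6438 (median -0.04). Serine and asparagine synthesis had 6 of 17 higher and 0 lower with MS8815N (median 0.23), and 0 higher and 1 lower with EPZ-6438 (median -0.01).

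**Figure D3:**
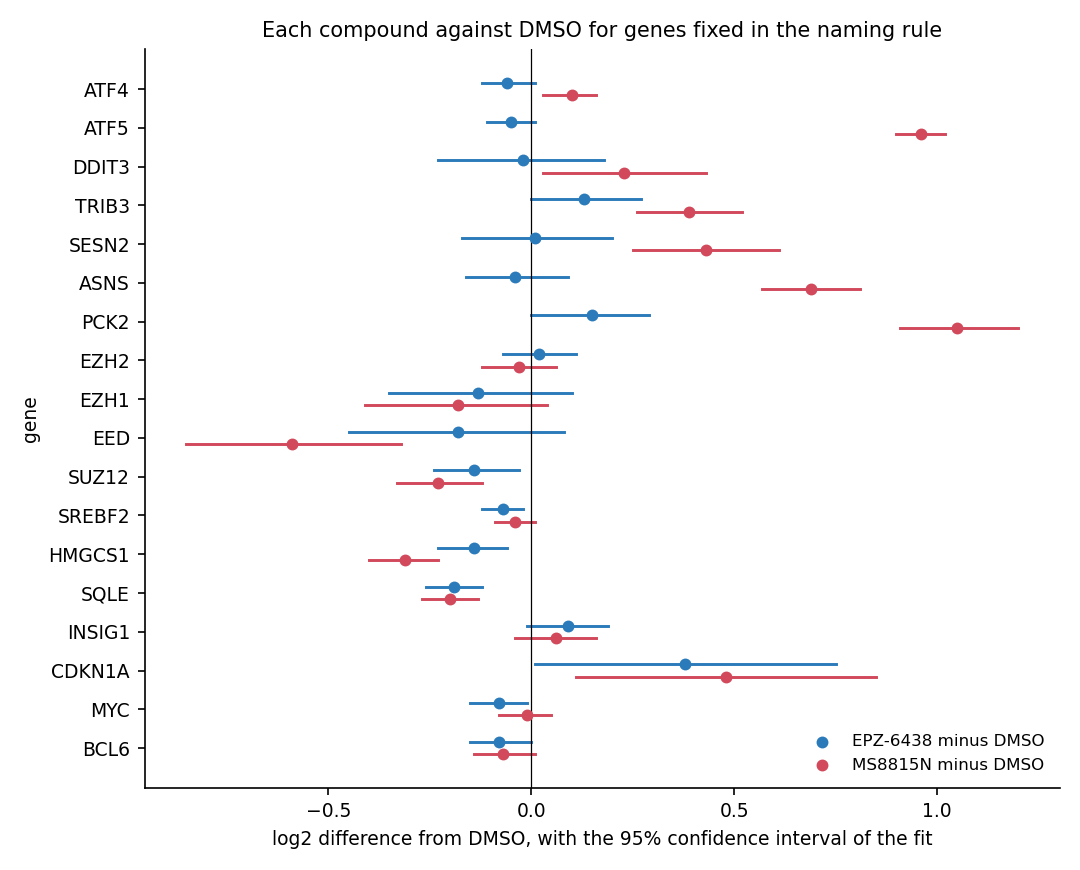
Log2 difference from DMSO with the 95% confidence interval of the fit (horizontal axis) for each compound and 18 genes fixed in the naming rule; both compounds share the DMSO libraries. ATF5, PCK2 and ASNS are at 0.69 to 1.05 with MS8815N and at -0.05 to 0.15 with EPZ-6438, while EZH2 lies near 0 with both.

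Some genes differed between the compounds mainly through a lower level with EPZ-6438. CNOT6L, a catalytic subunit of the CCR4-NOT deadenylase, had 623 and 700 normalised counts with DMSO, 323 and 398 with EPZ-6438 and 632 and 744 with MS8815N. The MS8815N and DMSO libraries overlapped and EPZ-6438 lay below both. The compounds differed by 0.93 ± 0.13 (limma adjusted p = 0.0383), which was lost whichever library was left out (0.0541 to 0.248). EPRS, the glutamyl-prolyl synthetase, had 9841 and 9590 with DMSO, 8082 and 7877 with EPZ-6438 and 9366 and 9341 with MS8815N, and differed between the compounds by 0.23 ± 0.03 (limma adjusted p = 0.0216, lost whichever library was left out, at 0.0795 to 0.162). The endoplasmic reticulum chaperone HSPA5 had 37641 and 38072, then 35010 and 34603, then 38255 and 38314. Its difference of 0.14 ± 0.02 (limma adjusted p = 0.0176) was likewise lost whichever library was left out (0.0666 to 0.16). HSPA5 and CALR, the calcium-binding chaperone at 0.20 ± 0.02, were the only called genes of 22 in the unfolded protein response list, whose median was 0.10. CALR kept the call in 1 of the 6 runs, that without EPZ-6438 replicate 2 (0.0273).

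All 13 protein-coding transcripts of the mitochondrial genome, which encode subunits of the respiratory chain and ATP synthase, were at higher mean levels with MS8815N than with EPZ-6438, apart from MT-CO1 after quantile normalisation, and 9 passed the test, with a list median of 0.22 and a range of 0.17 to 0.31. MT-CO1, a subunit of cytochrome oxidase (mitochondrial genome, 5904 to 7445), had 148171 and 152351 normalised counts with DMSO, 151210 and 155600 with EPZ-6438 and 185415 and 185388 with MS8815N. DMSO and EPZ-6438 overlapped, MS8815N lay above both, and the compounds differed by 0.27 ± 0.02 (limma adjusted p = 0.000713). That call held whichever library was left out. MT-CO1 had the same rank by level in every library, so quantile normalisation set its difference to 0 by construction. MT-ND2, a subunit of complex I, had 18895 and 19691 with DMSO, 16402 and 17295 with EPZ-6438 and 19977 and 19274 with MS8815N, so here the EPZ-6438 libraries stood apart (0.22 ± 0.03, limma adjusted p = 0.0498). Its call was lost whichever library was left out (0.0917 to 0.267). The 20 nuclear genes of oxidative phosphorylation had a median of 0.03 and none was called. The number of called mitochondrial genes was 5 without EPZ-6438 replicate 2, 4 without either DMSO library, 3 without EPZ-6438 replicate 1 and 1 without either MS8815N library. The non-polyadenylated RNAs, whose capture depends on library preparation, had a median of 0.17 between the compounds in the same libraries, with 0 of 9 called, and their part in the mitochondrial result was not tested. Nuclear copies of mitochondrial sequence such as MTATP6P1, also called higher at 0.26 ± 0.04 but in none of the 6 runs with a library left out, make the assignment of these reads uncertain.

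**Figure D4:**
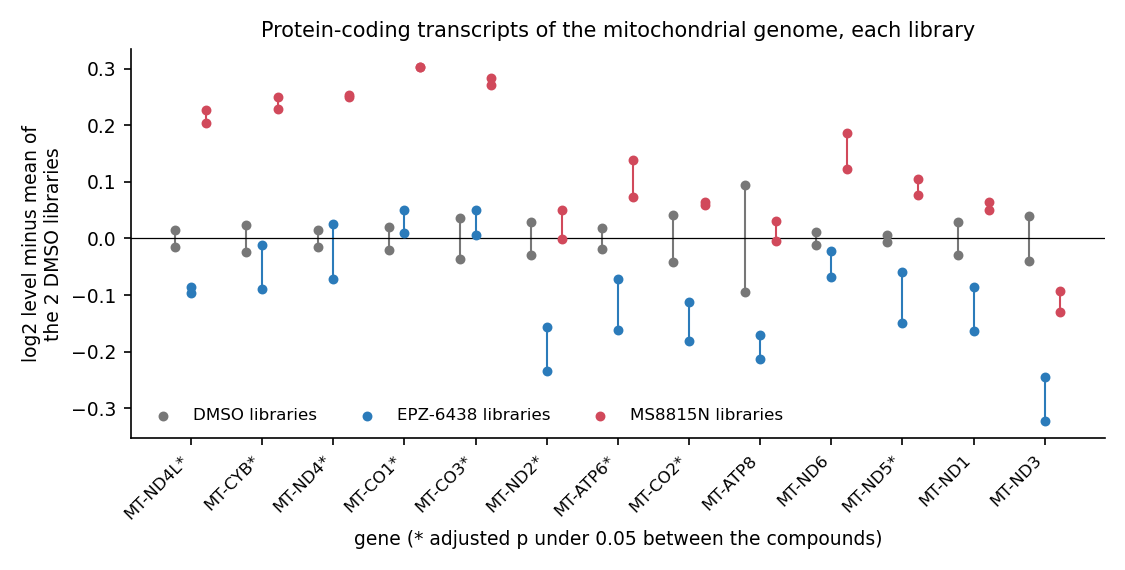
Level of the 13 mitochondrially encoded protein transcripts in each library, as log2(normalised count + 1) minus the mean of the 2 DMSO libraries (vertical axis), ordered by the difference between the compounds; points are libraries and lines join the 2 of a group. MS8815N lies above EPZ-6438 for every gene in this scaling, but for MT-CO1 the MS8815N points leave DMSO and for MT-ND2 the EPZ-6438 points do.

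Among the other genes with large rises, RNF187, a RING-type ubiquitin ligase (chromosome 1, 228487061 to 228495766), had 5954 and 6038 normalised counts with DMSO, 6225 and 6041 with EPZ-6438 and 9141 and 9030 with MS8815N. Only MS8815N stood apart, by 0.57 ± 0.03 from EPZ-6438 (limma adjusted p = 0.000361), and the call held whichever library was left out. CCPG1, a receptor for autophagy of the endoplasmic reticulum, was at 0.64 ± 0.07 (limma adjusted p = 0.011) and lost the call without either DMSO library (0.0844 and 0.0851) or either MS8815N library (0.0922 and 0.125). FTH1 and FTL, the ferritin chains that store iron, were at 0.23 ± 0.02 and 0.19 ± 0.02 and were 2 of 14 genes called in the list of NRF2 targets and ferritin (median 0.12). With a library left out FTH1 kept the call in 3 of 6 runs and FTL in 1, and the list held 0 called genes without either MS8815N library and 1 in each other run. Both have many processed copies, so their counts are uncertain. NQO1, a defining NRF2 target, was at 0.33 (0.19 to 0.46) and did not pass (limma adjusted p = 0.0816).

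The genes lower with MS8815N than with EPZ-6438 were fewer and shared no list. LPCAT1, which remodels phosphatidylcholine (chromosome 5, 1456480 to 1523977), had 9521 and 9304 normalised counts with DMSO, 8598 and 8410 with EPZ-6438 and 7052 and 6995 with MS8815N. The 3 groups did not overlap, both compounds lay below DMSO, and MS8815N minus EPZ-6438 was -0.28 ± 0.03 (limma adjusted p = 0.00902). The call was lost without either MS8815N library (0.0856 and 0.103) or either EPZ-6438 library (0.0823 and 0.0541). SYNE2, a giant protein that links the nuclear envelope to the cytoskeleton (chromosome 14, 63852983 to 64226433), had 5172 and 4888 with DMSO, 7108 and 7204 with EPZ-6438 and 6008 and 5699 with MS8815N. Here both compounds lay above DMSO and EPZ-6438 lay higher (-0.29 ± 0.04 for MS8815N minus EPZ-6438, limma adjusted p = 0.0383, lost whichever library was left out at 0.0949 to 0.248).

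TCHP, a keratin-binding centrosomal protein, was at -0.43, the centriole gene C2CD3 at -0.36, the transcriptional coactivator ZMIZ2 at -0.30, the NADPH oxidase subunit NCF1 at -0.29, the endocytic recycling ATPase EHD1 at -0.21 and the proliferation marker MKI67 at -0.19. Each lost its call in at least 5 of the 6 runs with a library left out. NCF1 has near-identical copies, and 2996 exonic bases of TCHP overlap GIT2 on the opposite strand, so both are uncertain. MKI67 was the only one of 20 mitosis genes called, and the list median was -0.02. Among genes of low level, ELL2, an elongation factor that plasma cells use for immunoglobulin secretion, had 129 and 142 normalised counts with DMSO, 273 and 296 with EPZ-6438 and 122 and 118 with MS8815N. EPZ-6438 was the group that stood apart, by -1.24 ± 0.14 for MS8815N minus EPZ-6438 (limma adjusted p = 0.0149), a call lost whichever library was left out (0.077 to 0.125). The pseudogene AC241585.1 and the clone-named genes RP11-540B6.6 and XXcos-LUCA11.5 were listed at 0 in both MS8815N libraries and at 12.1 to 125 in the other 4, and RP11-717F1.2 had 246 and 287 normalised counts with MS8815N against 14.3 to 34.4 elsewhere. These 4 genes are below the level the naming rule asks for and were picked with their values in view.

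For the target complex itself, no difference between the compounds passed the test in any of 12 measured PRC2 subunits (list median -0.05). EZH2 (chromosome 7, 148807383 to 148884321) had 4430 and 4674 normalised counts with DMSO, 4587 and 4637 with EPZ-6438 and 4409 and 4509 with MS8815N. All 3 groups lay within a narrow range, and the difference between the compounds was -0.05 (95% confidence interval -0.14 to 0.04, limma adjusted p = 0.756). EED, the subunit that reads methylated H3K27, had 482 and 502, then 467 and 401, then 308 and 348. MS8815N was lowest without overlap, but the difference from EPZ-6438 of -0.40 (-0.67 to -0.14) did not pass (limma adjusted p = 0.3). SUZ12, the scaffold subunit, was at -0.09 (-0.19 to 0.02), and EZH1, the paralogous methyltransferase, at -0.05 (-0.28 to 0.17). EZH2 protein and histone methylation were not analysed here.

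Genes reported to be silenced by EZH2 likewise gave no call between the compounds in 16 measured genes (list median -0.07). Against DMSO the median was 0.14 with each compound, and 0 genes were called with either. The cell-cycle inhibitor CDKN1A had 165 and 149 normalised counts with DMSO, 231 and 181 with EPZ-6438 and 216 and 221 with MS8815N. Both compounds lay above DMSO and overlapped each other, with a difference of 0.10 (-0.27 to 0.47, limma adjusted p = 0.887). PRDM1, the plasma-cell master regulator, was too low to compare, at no more than 63.6 normalised counts in any compound library and with a difference of -0.16 with an interval of -1.80 to 1.48. Of 16 polycomb-regulated developmental genes measured, 0 passed, with a median of -0.03. A missed threshold does not show that the compounds act alike on these genes, and the intervals of low genes are wide.

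**Figure D5:**
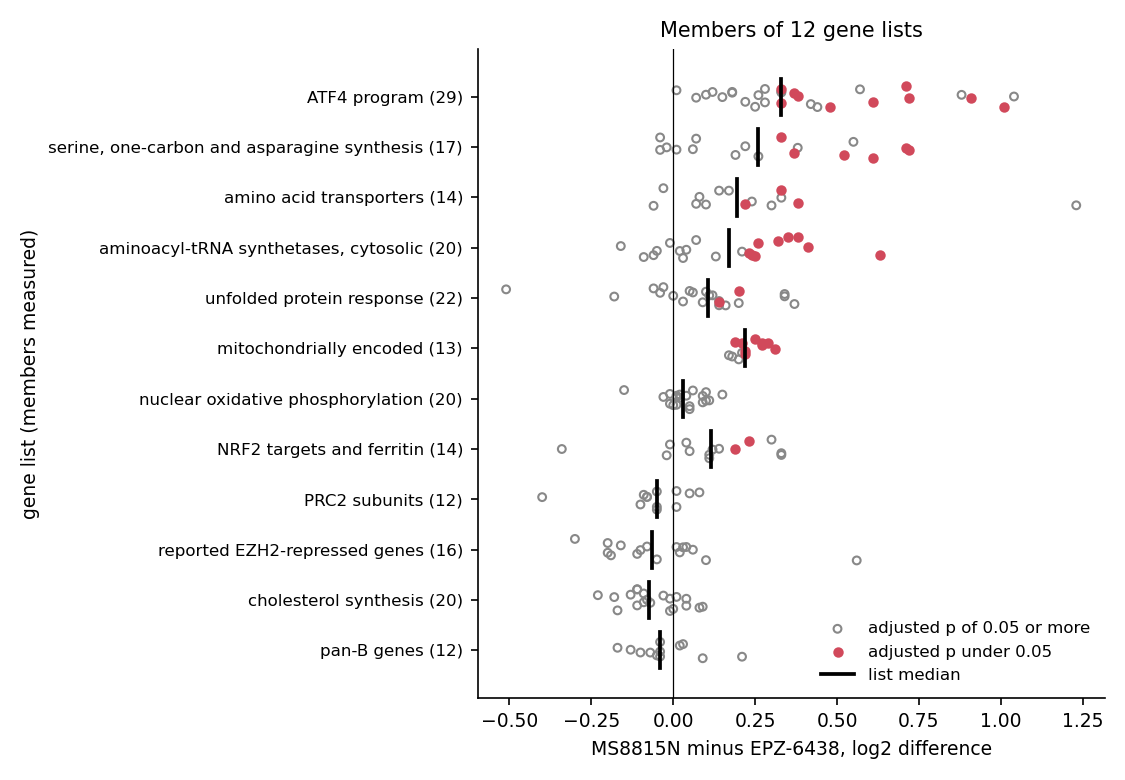
Log2 difference between MS8815N and EPZ-6438 (horizontal axis) for each measured member of 12 gene lists (vertical axis, number measured in brackets); filled points passed the test, open points did not, and bars are list medians. The medians of the 4 amino acid lists and of the mitochondrially encoded list lie to the right of 0, as do all their filled points, although 3 of the 4 also have open points left of 0, while the PRC2, EZH2-repressed, cholesterol and pan-B lists have no filled point.

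Cholesterol synthesis genes gave 0 calls of 20 between the compounds, with a median of -0.08, 4 lower than DMSO with MS8815N and 1 with EPZ-6438. HMGCS1, the HMG-CoA synthase of the mevalonate pathway, had 9140 and 9322 normalised counts with DMSO, 8143 and 8570 with EPZ-6438 and 7259 and 7622 with MS8815N. The 3 groups were ordered without overlap, and the compounds differed by -0.17 (-0.25 to -0.08), which did not pass (limma adjusted p = 0.182). SQLE, the squalene epoxidase, had 5392 and 5350 with EPZ-6438 and 5314 and 5376 with MS8815N, against 6083 and 6184 with DMSO. The compounds overlapped for SQLE (-0.01, interval -0.08 to 0.07) and both were called lower than DMSO, by 0.20 with MS8815N (-0.20) and 0.19 with EPZ-6438 (-0.19). SREBF2, the sterol-sensing regulator, was at 0.03 (-0.02 to 0.08) and INSIG1, which restrains it, at -0.02 (-0.12 to 0.07).

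Of B-cell genes, BCL6, the master repressor of the germinal centre, was at 0.01 (-0.07 to 0.08) and MYC at 0.07 (0.00 to 0.14), and neither passed. The 13 measured MHC class I genes had a list median of -0.10 between the compounds, 0.44 for MS8815N against DMSO and 0.59 for EPZ-6438 against DMSO. ERAP1, which trims peptides for class I, had 795 and 1033 with EPZ-6438 and 459 and 529 with MS8815N, a difference of -0.88 (-1.23 to -0.53) that did not pass (limma adjusted p = 0.0775). In the same libraries the adherent-cell markers had medians of 0.17, 0.55 and 0.44 in those 3 comparisons, with 0 of 8 called in each, and their part in the class I values was not tested.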

How the data were processed

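RNA-seq libraries of SUDHL6 cells were used. The authors deposited 1 table per compound of log2-type values, the DESeq2 variance-stabilising transform per the table names. STAR 2.4.2, Salmon and the build GRCh38 appear, without roles, in the submitters' processing notes, and the parameters and gene model are not given in the sources used here. Each table was inverted to normalised read counts by the closed form of the transform. The tables were joined by 1 constant per gene, the mean log2 ratio between tables over the shared DMSO libraries. As a check, 1 constant per gene and 1 per library fitted the DMSO values of 17552 genes to within 7e-11 in log2. The 24 genes at 0 in both DMSO libraries took the median constant. Depths are estimates from the step between low values. Limma 3.58.1 (R 4.3.3, trend in the prior variance, 3 residual degrees of freedom) was run on log2(normalised count + 1) of 6 libraries, for 3 contrasts, with two-sided p adjusted by Benjamini-Hochberg over 17884 genes, and was checked on simulated data. Compounds were compared as 1 pair. The 514 and 436 genes in only 1 table were not tested.

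Members and gene lists were chosen with earlier results of these data known. Named genes were 20 fixed genes, up to 12 called rises and 12 called falls of largest size among the upper 50% of genes by level without overlap, and up to 4 genes of smallest p per list described; a few genes singled out for their place in a list were added after their values were seen. Some genes that the rule takes are left out. Gene coordinates come from GENCODE 29 (GRCh38). The exons of 23 of the 71 called genes overlap another protein-coding gene, and whether counting used strand is not given in the sources used here. Alternatives covered the libraries fitted, the pseudocount, level filter, trend, scale, normalisation, gene constants, replicate block and each library left out.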

Additional observations from a re-analysis of the deposited data

Results flagged for a closer look

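A signal was seen in genes that only 1 of the 2 tables holds, which the comparison could not use. EPS8, a regulator of actin filaments, is in the MS8815N table only, with normalised counts of 0 and 0 with DMSO and 26.98 and 32.21 with MS8815N (mean 29.6). A gene that has only a clone name is in the EPZ-6438 table only, with 0 and 0 against 23.52 and 23.24 (mean 23.4). Their levels with the other compound were not analysed here, so no difference between the compounds follows, and no fold is given against groups listed at 0.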

How the results depend on the processing

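Between MS8815N and EPZ-6438, the 71 calls became 30 with only the 4 compound libraries, 30 with all 8 libraries, 0 without trend and 21 to 33 with a library left out, where the lone library of a group is assumed to vary like the other groups. The 53 under a replicate block, of which 49 are among the 71, and the counts of 54 to 97 under other pseudocounts, scales, constants and the level filter lay within 1.5 times. For MS8815N against DMSO, 275 calls became 65 with all 8 libraries, 541 in the upper 50% of genes, 2 without trend, 149 after quantile normalisation, 133 with a replicate block and 21 to 112 with a library left out. For EPZ-6438 against DMSO, 185 became 0 with all 8 libraries (2353 at an unadjusted p under 0.05), 536 in the upper 50% of genes, 2 without trend, 53 after quantile normalisation, 37 with a replicate block and 0 to 14 with a library left out. Causes were not tested, beyond the fewer samples or genes that the alternatives use by construction. Replicate numbers did not pair the libraries: deviations of same-numbered libraries correlated at -0.05 to 0.03 across genes, which are not independent. Without 1 library, 13 of the 71 genes kept the call in all 6 runs, 26 in some and 32 in none. No called gene changed direction under the alternatives run for it, although MT-CO1 and EEF1A1 were at 0 after quantile normalisation. Of 1273 values of the called genes, 755 kept the call. Depth limits genes of low level such as PRDM1 (interval -1.80 to 1.48).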

Other observations

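Other genes of translation were among those higher with MS8815N than with EPZ-6438. EIF1, which selects the start codon, had 15226 and 15582 normalised counts with DMSO, 15379 and 14980 with EPZ-6438 and 17620 and 17685 with MS8815N (0.22 ± 0.02, limma adjusted p = 0.0111). EIF2S2, the beta subunit of eIF2, was at 0.21 ± 0.03 and EEF1A1, the elongation factor that delivers charged transfer RNA, at 0.11 ± 0.01. EEF1A1 has many processed copies and was at 0 after quantile normalisation. The genes of this paragraph were picked with their values in view. EIF1 and EIF2S2 lost the call whichever library was left out. Of 20 large-subunit ribosomal protein genes 19 had a difference above 0, with a median of 0.05, and 0 passed the test. The glucocorticoid-induced leucine zipper gene TSC22D3 had 962 and 948 with DMSO, 1108 and 1110 with EPZ-6438 and 1443 and 1441 with MS8815N (0.38 ± 0.06, limma adjusted p = 0.0486, lost whichever library was left out at 0.138 to 0.265). The peroxisomal enzyme HSD17B4 was at 0.38 ± 0.05, with the call also lost whichever library was left out (0.123 to 0.221).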
